A study of Zea mays with 9 samples.

Results

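The 4 genes described here are 3 maize asparagine synthetases, asn1 (LOC542435), asn2 (LOC100192349) and asn3 (LOC100192350), and the glutamate dehydrogenase gdh1 (LOC542220). They were taken by name from a table of 30184 genes and followed over 9 RNA-seq libraries from second leaves of seedlings aged 9 days. All plants were of a single maize hybrid, CG108 x CG102, without any engineered allele, and each library was a pool of 3 plants, with 3 libraries in each of 3 groups. The weed-free control (WF) was grown at a ratio of red to far-red light (R:FR) that the labels put near 1.5. In biological low R:FR light (W), near 0.6, living grass around the seedling's cup reflected far-red light onto the seedlings. In artificial low R:FR light (FR), also near 0.6, lamps supplied the far-red light over seedlings without grass. The study's own text differs from the labels, with a higher ratio for WF and a slightly lower one for W and FR. Each seedling stood in a cup at the centre of a larger pot, whose outer part held potting mix with grass in W and clay granules in WF and FR, so the source of light and the filling around the cup cannot be told apart in W. The study's question was whether far-red light alone acts on leaf nitrogen metabolism as living neighbours do.

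Asparagine synthetase transfers the amide nitrogen of glutamine to aspartate, which gives asparagine and glutamate. Asparagine carries much nitrogen for little carbon, and plants use it to store and to transport nitrogen, in leaves often in the dark, under sugar shortage or in senescence. Glutamate dehydrogenase joins ammonium to 2-oxoglutarate or, in the opposite direction, frees ammonium from glutamate. In leaves the bulk of ammonium is taken up by glutamine synthetase and glutamate synthase instead.

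On Zm-B73-REFERENCE-NAM-5.0, asn1 lies on chromosome 9 (34625511 to 34634732), asn2 on chromosome 3 (235198477 to 235201554) and asn3 on chromosome 1 (44909165 to 44912606). All 3 are on the minus strand, and RefSeq lists 1 transcript for each. The gene gdh1 is also on the minus strand of chromosome 1 (294101396 to 294107787) and has 4 listed transcripts. It shares 159 bases at its 3' end with LOC103644168 on the plus strand. That neighbour had at most 94.52 normalized counts in any library, where gdh1 had at least 1201.

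Between 22775151 and 40283408 reads per library were assigned to genes. The third biological library (W3) stood apart: its mean distance to the other libraries was 0.909, against 0.576 to 0.650 for the rest, and in W3 897 genes stood 4-fold or more under the average of the other 8 libraries. Results that turn on W3 are therefore given with and without it. The read totals that accompany the study matched the recovered totals of the W libraries, but for WF and FR they matched closely only when both group names were exchanged. The labels are kept here as deposited. If WF and FR were exchanged, each difference between FR and WF would change sign and each difference of W from WF would become that from FR. The leaf identity was checked with 3 mesophyll genes (pep1, pdk1, mdh6) and 3 bundle sheath genes (ssu1, me3, rca1), none of which was at 0 in any library. The labels do not say whether pools of a group came from separate sowings, so p-values measure the spread between these pools.

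Per length, asn1 and gdh1 were the abundant members and asn2 and asn3 the rare ones. In TPM, read density per transcript length scaled to the same total in every library, the mean over 9 libraries was 45.0 for asn1, 36.3 for gdh1, 1.61 for asn3 and 0.0446 for asn2. These levels ranked 2299, 2812, 17607 and 28839 among the 30184 genes. The asn1 transcript made up 93.3% to 99.0% of the TPM summed over the 3 asparagine synthetases in every library. The summed level was 51.0 ± 5.03 TPM in WF, 49.0 ± 7.59 in W and 39.9 ± 5.04 in FR (SD, n = 3). Thus, among these 3 genes, any change of asn3 was a change in a minor transcript, and their total followed asn1. Any other asparagine synthetase gene is outside these shares.

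The rare asparagine synthetase asn3 was highest in biological low R:FR light. Its normalized counts were 17.9, 40.9 and 64.4 in WF. They were 120.1, 111.1 and 147.8 in W, and FR had 37.0, 49.8 and 45.9. Each W library lay above every WF and every FR library, without overlap, as did the W libraries for 8.58% of all genes against WF and for 8.93% against FR. This place at the top does not depend on which of the other groups is called WF. Among 24093 genes tested over all 9 libraries, 480 (1.99%) were likewise higher in each W library than in all others. The WF and FR libraries overlapped, and the 3 FR values lay within the range of the WF values.

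The mean of asn3 was 126.3 ± 19.1 in W, 41.1 ± 23.3 in WF and 44.3 ± 6.58 in FR (SD, n = 3). The ratio of means was 3.08 for W over WF, 2.85 for W over FR and 1.08 for FR over WF. In limma on log2(normalized count + 1), the log2 fold change was 1.76 against WF (SE 0.43, 95% interval 0.74 to 2.78) and 1.49 against FR (SE 0.21, 1.00 to 1.99). Adjusted over all genes by Benjamini-Hochberg, neither passed the limit of 0.1, with an adjusted p of 0.288 against WF and 0.132 against FR. By p, asn3 ranked 380 of 23600 genes in the first comparison and 31 of 23476 in the second. Only 0.0466% of all genes passed in W against WF, and 0% in W against FR, where 1962 genes had an unadjusted p under 0.05. In the latter comparison edgeR also called 0 genes and DESeq2 called 250.

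The call on asn3 depended on the test and on W3. DESeq2 on recovered reads passed asn3 in W against WF (log2 fold change 1.64, adjusted p 0.013) and in W against FR (1.61, adjusted p 0.001, FR replicates 1 and 3 only). The quasi-likelihood test of edgeR on the same reads gave 1.62 in W against WF, with an adjusted p of 0.292. Without W3, limma gave 1.64 in W against WF (adjusted p 0.086) and 1.37 in W against FR (adjusted p 0.098), both past the limit. The difference in asn3 was thus nearly as large with the other pair of W libraries alone, while the adjusted p crossed the limit in both comparisons. Without W3, 1936 of 23300 genes passed in W against WF and 104 of 23129 in W against FR. DESeq2 called 449 of 30174 genes in W against WF. Set against the other 6 libraries together, a comparison added after the data were seen, asn3 was higher in W by 1.63 (SE 0.34, adjusted p 0.165).

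The spread of asn3 in the control was wide, and it set most of the error. The lowest control library held 20 reads of asn3 (95% exact Poisson interval 12.2 to 30.9) and the highest held 68 (52.8 to 86.2), so these libraries differed by more than counting error. Without the low control library the log2 fold change in W against WF was 1.27 and without the high one it was 2.17. Between artificial light and the control the log2 fold change of asn3 was 0.27 (SE 0.41, 95% interval -0.65 to 1.19, adjusted p 0.699). Without the low control library it turned to -0.22, so no direction can be given for FR.

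In TPM, asn3 stood at 0.410, 0.934 and 1.49 in WF, at 2.74, 2.77 and 2.86 in W, and at 0.979, 1.12 and 1.22 in FR. The W libraries were again the 3 highest. An exact two-sided permutation test of mean TPM gave p = 0.1 for W against WF and for W against FR, which is the smallest value that 3 libraries against 3 can give. On log2(TPM + 1) the difference between W and WF was 1.00 (adjusted p 0.184, limma), smaller than on normalized counts because the added 1 is large beside these levels. Of the summed asparagine synthetase TPM, asn3 made up 0.809%, 2.02% and 2.65% in WF. That share was 4.77%, 5.93% and 6.69% in W and 2.53%, 3.16% and 2.69% in FR.

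The bundle sheath markers, taken as a sum, were also highest in W, and each of the 3 had its highest mean TPM there. Gene by gene, however, the W libraries overlapped another group. Their summed level was 12233 to 13569 TPM in W, against 10499 to 11619 in WF and 9056 to 11572 in FR, and 0 of these 3 genes passed in W against WF or in W against FR. The sum was mostly ssu1, at 6965 to 8450 TPM in W and 6370 to 7317 in WF, which overlapped. In FR ssu1 was at 4416 to 6256 TPM, below all W libraries. The gene me3, at 3614 to 4023 TPM in W, overlapped FR, at 3260 to 3928, but lay above WF, at 3240 to 3317. In normalized counts, 8.58% of all genes tested were higher in every W than in every WF library. For W above FR the share was 8.93%. The gene rca1 was at 1245 to 1505 TPM in W, 864 to 1061 in WF and 1318 to 1388 in FR. It passed in FR against WF (log2 fold change 0.50, adjusted p 0.026, limma), where 9.98% of all genes passed as higher. The mesophyll sum was 18802 to 29166 TPM in W and overlapped that of WF, 23580 to 26506, and that of FR, 26350 to 27576. The part of the bundle sheath markers in the asn3 difference was not tested. In bulk leaf RNA, more cells of a type and more RNA per cell cannot be told apart.

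**Figure D1:**
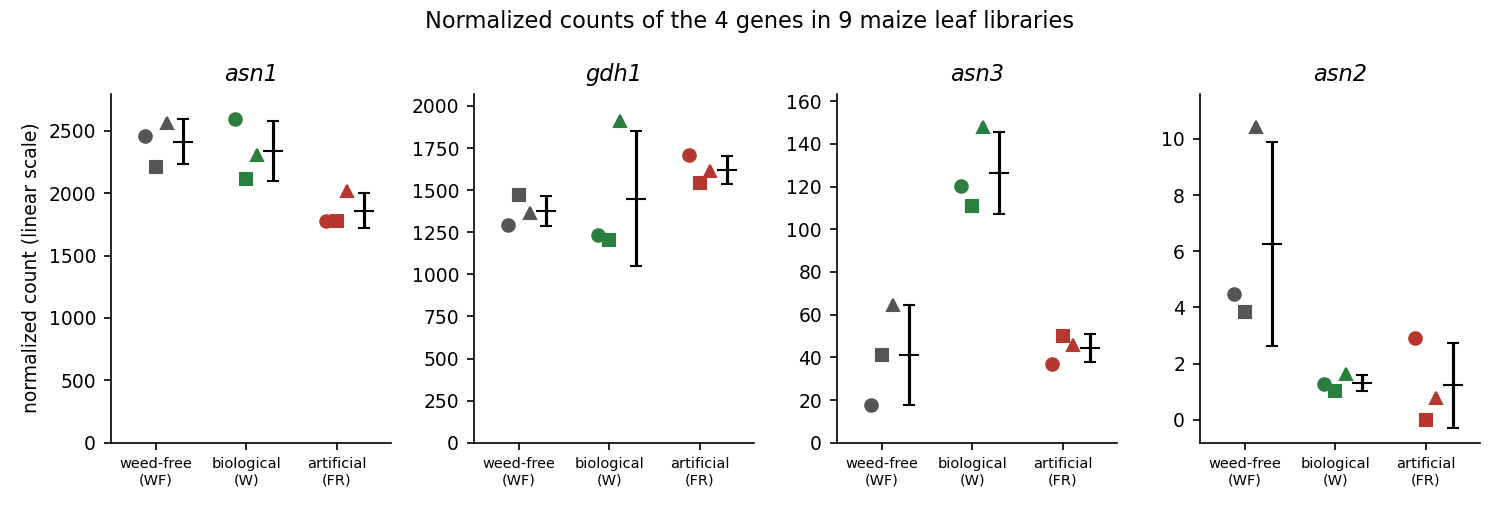
Normalized counts (linear axis) of asn1, gdh1, asn3 and asn2 in the 9 libraries, by group. Circles, squares and triangles are replicates 1, 2 and 3, and the black dash with bars is the mean ± SD (n = 3). The 3 biological libraries of asn3 (111.1 to 147.8) lie above all 6 others (17.9 to 64.4).

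**Figure D2:**
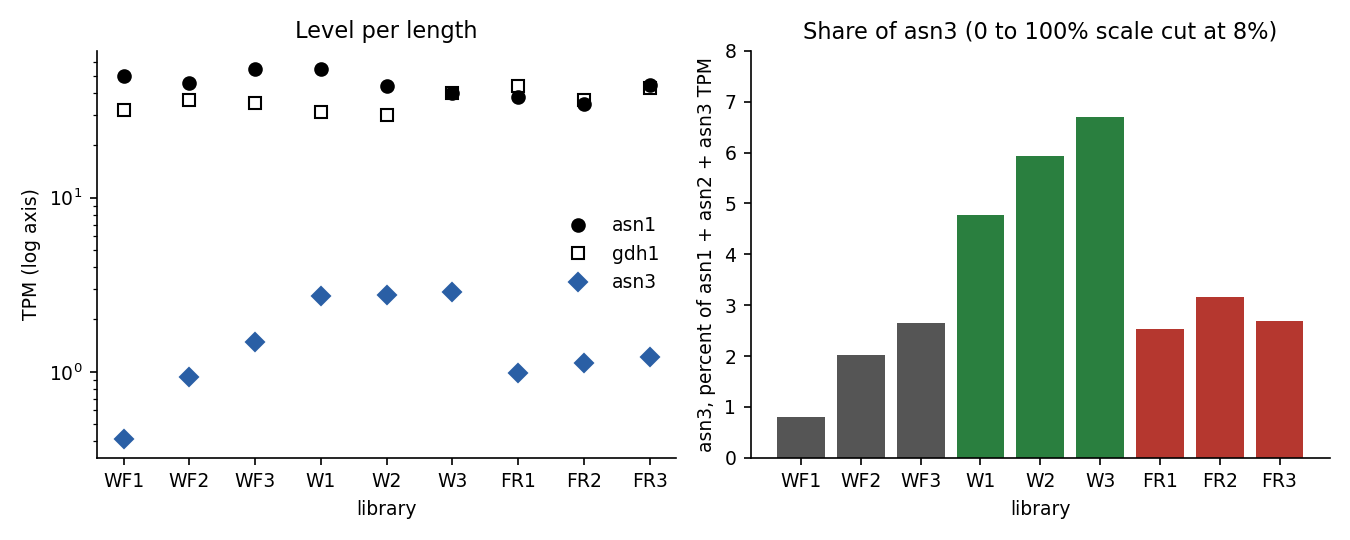
Left, TPM of asn1, gdh1 and asn3 per library on a log axis. Right, the percentage of the summed TPM of the asparagine synthetases that asn3 made up, 4.77% to 6.69% in the biological libraries (W) and 0.809% to 3.16% in the weed-free (WF) and artificial (FR) ones.

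The most abundant of the 3 asparagine synthetases, asn1, was lower in artificial low R:FR light. Its normalized counts were 2460, 2212 and 2561 in WF, 2597, 2113 and 2304 in W, and 1777, 1778 and 2021 in FR. Every FR library lay below every WF and every W library, while WF and W overlapped. Of all genes, 17.5% lay lower in every FR than in every WF library, and 8.93% lay higher in every W than in every FR library. The share with FR below both groups was not counted. Means were 2411 ± 180 in WF, 2338 ± 244 in W and 1859 ± 140 in FR (SD, n = 3). The ratio of means was 0.771 for FR over WF.

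In limma, asn1 fell by 0.38 on the log2 scale in FR against WF (SE 0.09, 95% interval -0.57 to -0.18, adjusted p 0.026). Of all genes tested in that comparison, 21.8% passed, 9.98% higher and 11.9% lower, so passing was common in this comparison. By p, asn1 ranked 1644 of 23450 genes. The fall passed in DESeq2 (-0.35) and edgeR (-0.36) too. It did not pass without the third weed-free library (-0.33, adjusted p 0.101) or when all 9 libraries shared 1 estimate of the spread (adjusted p 0.123, limma). In TPM asn1 stood at 50.1, 45.3 and 54.6 in WF and at 37.7, 34.4 and 44.2 in FR, again without overlap, and the exact permutation test gave p = 0.1, the smallest possible.

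Between W and WF the log2 fold change of asn1 was -0.05 (SE 0.12, 95% interval -0.33 to 0.24, adjusted p 0.922). A change of asn1 inside this interval stays compatible with these 3 libraries a group. The interval is not a limit of detection, which was not computed. Against FR, asn1 was higher in W by 0.33 (SE 0.13, adjusted p 0.541), which did not pass. The normalized counts did not overlap, as for 8.93% of all genes when higher in W. In TPM the W libraries, at 54.7, 44.0 and 39.9, overlapped the FR libraries. A difference in response of asn1 to the 2 sources of low R:FR light therefore was not shown by the test of W against FR.

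The glutamate dehydrogenase gdh1 was slightly higher in artificial low R:FR light. Normalized counts were 1294, 1469 and 1364 in WF and 1708, 1542 and 1611 in FR, without overlap, as 17.9% of all genes also were when higher in FR. The W libraries held 1234, 1201 and 1913, so 2 lay below all WF libraries and W3 lay above all others of the series. Means were 1376 ± 88.4 in WF, 1449 ± 402 in W and 1620 ± 83.2 in FR (SD, n = 3). In TPM, gdh1 was at 32.0, 36.3 and 35.1 in WF and at 43.6, 36.2 and 42.4 in FR, so these groups overlapped. The exact permutation test of mean TPM gave p = 0.2 for FR against WF. In TPM, W3 was at 39.8, below FR replicates 1 and 3.

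In FR against WF, gdh1 rose by 0.24 on the log2 scale (SE 0.08, 95% interval 0.06 to 0.41, adjusted p 0.080), a ratio of means of 1.18. This call was near the limit, ranked 4272 of 23450 genes by p, and was lost on TPM (0.23, adjusted p 0.161), with all 9 libraries in 1 fit (adjusted p 0.524) and with replicate number fitted as a block (adjusted p 0.117). It was also lost without FR replicate 1 (0.20) or 3 (0.24) and without WF replicate 1 (0.19) or 3 (0.23). In W against WF the log2 fold change was 0.04 (SE 0.19, 95% interval -0.41 to 0.50, adjusted p 0.956). Without W3 it was -0.17, so the sign of that value was set by 1 library. In W against FR it was -0.19 (SE 0.19, adjusted p 0.798), and -0.41 without W3 (adjusted p 0.150, limma).

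The ratio of gdh1 to asn1, both in normalized counts, was 0.526, 0.664 and 0.533 in WF and 0.961, 0.867 and 0.797 in FR. The FR ratios all lay above the WF ratios. This separation follows from the counts already given, with gdh1 higher and asn1 lower in every FR library, and is not a further result. In W the ratio was 0.475, 0.569 and 0.830, and the highest of these was W3. This ratio compares libraries for the same pair of genes and does not set the levels of the genes against each other, since transcript length differs.

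The asparagine synthetase asn2 was close to undetected. It had 5, 3 and 11 reads in WF. W had 1, 1 and 2, and artificial replicates 1 and 3 had 3 and 1. In artificial replicate 2 it was listed at 0, which means 0 reads. Summed over libraries, 4 reads in W against 19 in WF gave a depth-corrected ratio of 0.196 (exact 95% interval 0.0486 to 0.591). For FR, 4 reads in replicates 1 and 3 gave 0.271 (0.0670 to 0.815). Artificial replicate 2, with 0 reads, is not in this ratio, and counting it would lower the ratio. Both intervals lie below 1, but they cover counting error only, and 11 of the 19 control reads came from the third WF library. Without that library the ratio was 0.304 for W and 0.420 for FR. The FR ratio was 0.122 without replicate 1 and 0.457 without replicate 3, so its size was set by single libraries.

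In normalized counts, asn2 was 4.48, 3.83 and 10.4 in WF, 1.26, 1.04 and 1.62 in W, and 2.92, 0 and 0.765 in FR. The WF libraries were the 3 highest. Of the genes tested, which leave out asn2, 9.13% were lower in every W than in every WF library. For FR below WF the share was 17.5%. The gene asn2 stayed below the minimum of 10 normalized counts in 3 of 6 libraries and was left out of the test. In limma without that filter the log2 fold changes were -1.55 in W against WF (SE 0.51, adjusted p 0.460) and -1.82 in FR against WF (SE 0.65, adjusted p 0.111). Neither passed at these counts. In TPM, asn2 was listed at 0 in 4 libraries and did not exceed 0.205.

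**Figure D3:**
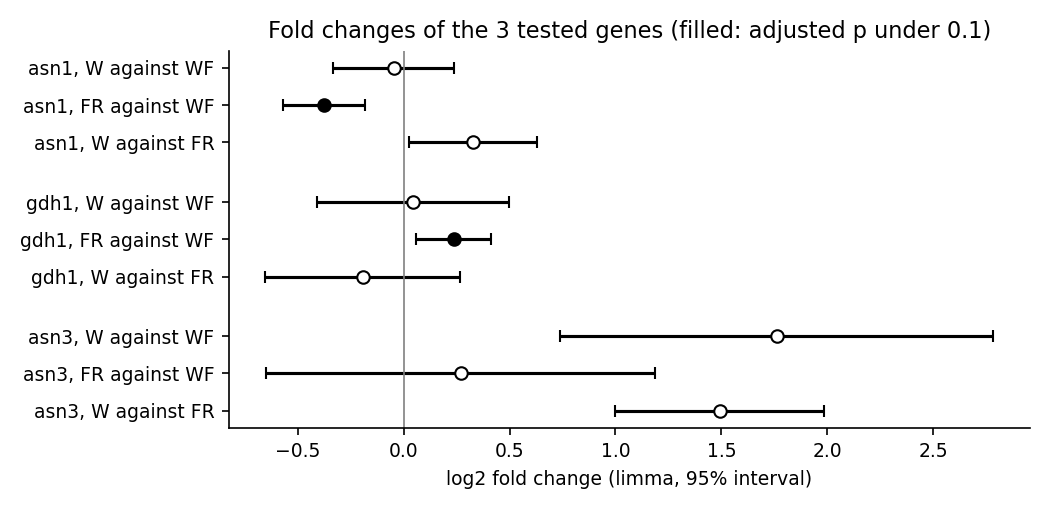
Log2 fold changes (limma, 6 libraries each) with 95% intervals for asn1, gdh1 and asn3 in each comparison. Filled points passed an adjusted p under 0.1: asn1 (-0.38) and gdh1 (0.24) in FR against WF. The largest folds, asn3 in W against WF (1.76) and against FR (1.49), have intervals above 0 but did not pass.

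**Figure D4:**
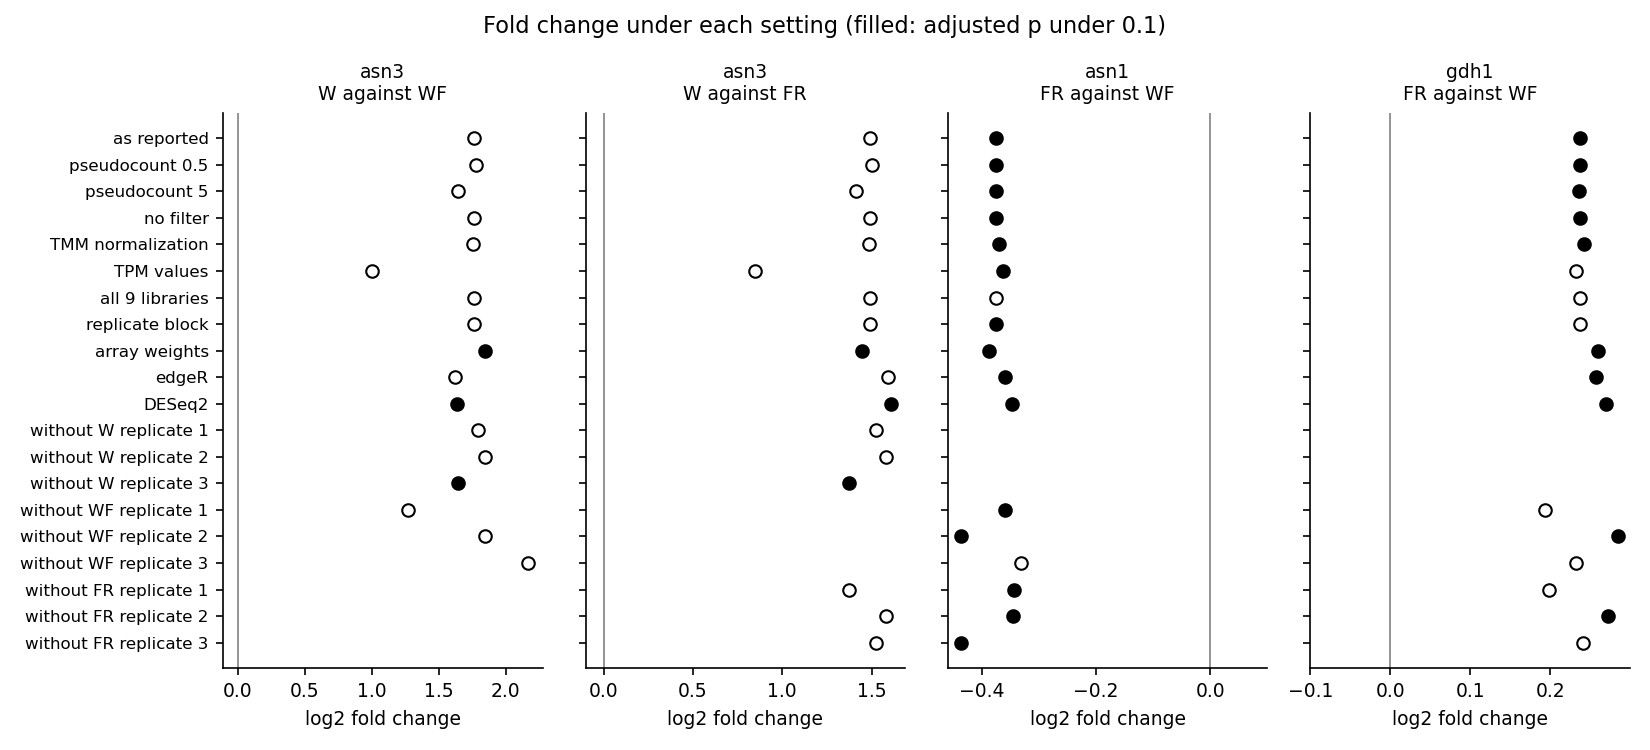
Log2 fold change of asn3 (W against WF and W against FR), asn1 and gdh1 (FR against WF) under each setting, filled where the adjusted p was under 0.1. Every point of asn3 lies above 0, from 1.00 (TPM) to 2.17 (without WF replicate 3) against WF, and every point of asn1 lies below 0.

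The genes around the 4 enzymes in nitrogen assimilation were described from a list of 14: 7 of ammonium assimilation, 3 of nitrate reduction, 3 of aspartate use and 1 of glutamate use. All 14 could be tested. In W against WF and in W against FR, 0 passed in either direction. Without W3, gln3 and the ferredoxin-dependent glutamate synthase fgs1 passed in W against WF, as did 1936 of all 23300 genes tested. For fgs1 the normalized counts were 46136, 38347 and 42572 in WF and 57947, 56883 and 26468 in W, where the lowest was W3. Its log2 fold change was 0.07 (adjusted p 0.956, limma) with W3 and 0.44 (adjusted p 0.061) without it. In FR against WF, 1 was higher and 3 were lower, beside 9.98% and 11.9% of all genes. The median log2 fold change of the 14 was 0.04 in W against WF, -0.02 in FR against WF and 0.16 in W against FR. Over all genes tested these medians were -0.05, 0.01 and -0.04.

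Glutamine synthetase makes the glutamine that asparagine synthetase consumes, and its genes moved in both directions in FR against WF. The gene gln6 fell by 0.68 on the log2 scale (SE 0.11, adjusted p 0.009, limma). Its normalized counts were 3010, 3192 and 3050 in WF and 1757, 1755 and 2310 in FR. The gene gs2, the most abundant of the family here at 983 to 1082 TPM in WF, fell by 0.40 (SE 0.10, adjusted p 0.031), while gln2 rose by 0.25 (SE 0.07, adjusted p 0.039). The genes gln6, gs2 and asn1 were each lower in all 3 FR libraries than in all 3 WF libraries, as were 17.5% of all genes tested. With all 9 libraries in 1 fit, gs2 alone of these list genes passed. The call on gs2 was lost without WF replicate 1 or 2 or FR replicate 1, and that on gln2 without WF replicate 2 or 3.

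The gene gln3, also of the glutamine synthetase family, was higher in W, as asn3 was. It is outside the rule for naming list genes and was chosen after its values were seen. Its normalized counts were 311, 289 and 380 in WF, 689, 775 and 1057 in W, and 292, 573 and 362 in FR. All W libraries lay above all others, as they did for 480 (1.99%) of the 24093 genes tested over all 9 libraries. The log2 fold change was 1.35 in W against WF (SE 0.19, adjusted p 0.131) and 1.07 in W against FR (SE 0.28, adjusted p 0.324). Neither passed in limma. In W against WF it passed without W3 (1.17, adjusted p 0.013), with array weights, on TPM values (1.16, adjusted p 0.066) and in DESeq2 (1.38, adjusted p 5.17e-06). It did not pass in edgeR on the same reads (1.36, adjusted p 0.128), with all 9 libraries in 1 fit, with the replicate block (adjusted p 0.211) or when any other single library was left out. In W against FR it passed in DESeq2 only (1.36, adjusted p 0.002). Over all genes in W against WF, leaving out W3 called 1936, array weights 1288, TPM values 61 and DESeq2 449.

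Of the nitrate reduction genes, the nitrate reductase NAR fell by 0.84 in FR against WF (SE 0.24, adjusted p 0.048, limma). It held 1534, 1405 and 1204 normalized counts in WF and 558, 682 and 1177 in FR, so the third artificial library lay close to the lowest control library. The call was lost in DESeq2 (-0.67, adjusted p 0.297) and edgeR (-0.68, adjusted p 0.101), with all 9 libraries in 1 fit (adjusted p 0.169), and without WF replicate 1 (-0.77), WF replicate 2 (-0.83) or FR replicate 1 (-0.62). The biological libraries, at 1862, 1077 and 1087, overlapped both groups. For NNR1, the other nitrate reductase listed, the log2 fold change in FR against WF was 0.20 (SE 0.18, adjusted p 0.499). For nir, the nitrite reductase, it was -0.19 (SE 0.11, adjusted p 0.302).

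Of the genes of aspartate and glutamate use, 0 of 4 passed in any of the 3 comparisons. The glutamate decarboxylase GAD had log2 fold changes of 0.15 in W against WF and 0.04 in FR against WF. The gene akh2, an aspartate kinase and homoserine dehydrogenase that leads aspartate towards lysine and threonine, had -0.67 (SE 0.25, adjusted p 0.438) and -0.52 (SE 0.20, adjusted p 0.121). Both comparisons share the weed-free libraries.

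**Figure D5:**
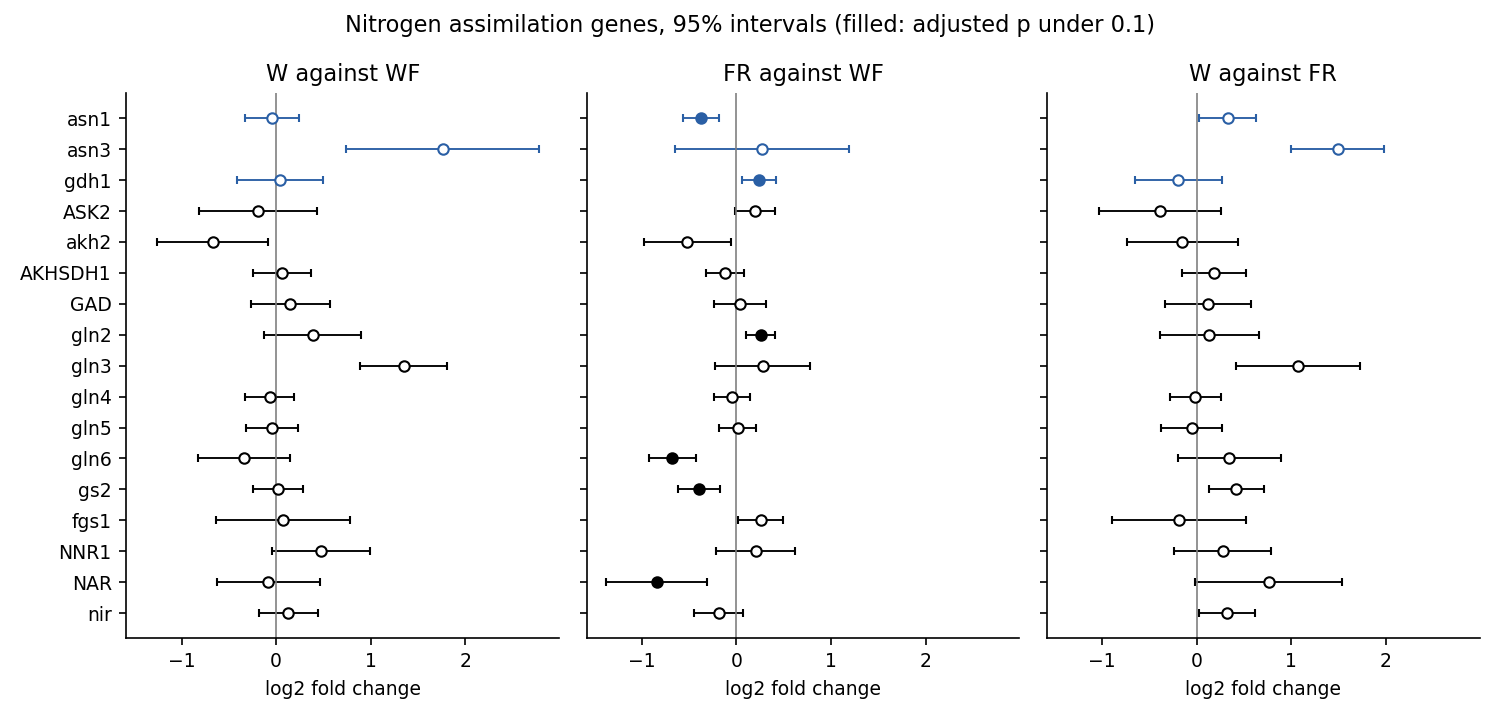
Log2 fold changes with 95% intervals of the 3 tested members (blue) and the 14 genes of nitrogen assimilation (black) in W against WF, FR against WF and W against FR. Filled points passed an adjusted p under 0.1, which only happened in FR against WF: asn1, gln6, gs2 and NAR lower, gdh1 and gln2 higher.

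The genes most like each member over the 9 libraries were sought among 1630 genes with a symbol and a mean of at least 50 normalized counts, as Pearson's r of log2 values. For asn1 they were the cellulose synthase genes CesA-2 (r = 0.97) and CesA-9 (r = 0.97) and pglcat4 (r = 0.97), with 0.98, 0.98 and 0.99 without W3. For asn3 they were HB21 (0.95), the cytidine deaminase cda1 (0.93) and HB133 (0.90), with 0.93, 0.93 and 0.87 without W3. For gdh1 they were the dehydroascorbate reductase dhar3 (0.97), the profilin PRO4 (0.96) and SUMO1b (0.96), with 0.95, 0.94 and 0.94 without W3. The points share libraries and treatments, the genes were picked as the highest of many, and r describes these 9 libraries only. The mean of CesA-2 was 3771 normalized counts in WF, 3509 in W and 2248 in FR, the same order of groups as for asn1.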

How the data were processed

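Total RNA-seq of 9 leaf pools was used. The authors deposited a signal table, in which each library's counts had been divided by its DESeq2 size factor, and a file per library with TPM, FPKM and mean coverage values. FPKM and coverage were not used for results. The comparison tables, with the authors' mean signal, log2 fold changes and p-values, were not used. Submitters' processing notes name Bowtie2 2.4.3, HTSeq 0.13.5 and DESeq2 1.30.1, while the study's methods name STAR and featureCounts, and the strand setting is not given in the sources used here. The program behind the deposited TPM values is likewise not given. 0 columns were left unmapped.

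Normalized counts were compared as log2(value + 1) in limma 3.58.1 (trend) over the 6 libraries of each pair, for genes with at least 10 in at least 3 libraries. Adjustment (Benjamini-Hochberg) covered every gene in the fit, and genes passed under 0.1. DESeq2 1.42.0 and edgeR 4.0.16 (R 4.3.3) were run on reads recovered as whole multiples of 1 read's value (100% of values within 0.01). Artificial replicate 2 was left out there, because its step is too near 1. DESeq2 tested all genes with a read, without the filter on low values. The fits were tested on simulated data. Tables were prepared in Python 3.11.15 with pandas 2.3.3, numpy 2.4.6 and scipy 1.17.1. Intervals at 95% on reads cover counting error only.

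Members, lists and alternatives were chosen with earlier results of these data known. Named are all 4 members, list genes that passed (up to 4 a direction, by p) and, per tested member, the 3 genes with a symbol and the highest r. List genes were matched by RefSeq symbol. Promoter and protein sequences were planned and not analysed here. Alternatives were thresholds, pseudocounts of 0.5 and 5, no filter, TMM, TPM (minimum 1), all 9 libraries in 1 fit, the replicate block, array weights, leaving out each library, DESeq2 and edgeR; W against both other groups was added later. The replicate block was fitted as an alternative in each of the 3 comparisons. Residuals of same-numbered replicates correlated at 0.122, 0.231 and 0.130 between W and FR, above 0.1 for each of the 3 pairs. The labels do not give such a pairing. In W against FR the block changed no member's call, but in FR against WF gdh1 no longer passed with it.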

Additional observations from a re-analysis of the deposited data

How the results depend on the processing

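The limma results rest on 3 libraries a group, and single libraries of each group decided several calls. The direction of asn3 in W against WF and W against FR, and of asn1 and gdh1 in FR against WF, was the same in all settings run. The counts of members here cover the 3 tested ones, asn1, asn3 and gdh1, and leave out asn2. Of these 3, 0 passed in W against WF. With array weights, without W3 and with DESeq2, 1 passed (asn3), beside 1288, 1936 and 449 of all genes. In W against FR the same 3 settings called 406, 104 and 250 genes and passed 1 member, where 0 passed otherwise. In FR against WF, 2 passed, but 1 passed at an adjusted p under 0.05, on TPM values or with the replicate block, 0 passed with a minimum of 1.5-fold or with all 9 libraries in 1 fit, and leaving out 1 library gave 0 to 2. Leaving out 1 library gave 0 to 1 in W against WF, in W against FR and in W against both other groups, the last from the fit without WF replicate 3. With the replicate block, asn3 in W against FR kept its log2 fold change of 1.49 (adjusted p 0.153, limma). The same-number correlations were 0.125, -0.0121 and 0.0587 in W against WF, and 0.00567, 0.0909 and 0.0970 in FR against WF. These values do not settle whether the numbers pair the libraries. The study describes randomized complete blocks for its experiments, but the labels do not tie replicate numbers to blocks. The block moved gdh1 in FR against WF to an adjusted p of 0.117 (limma).

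Of the 14 list genes, 0 passed in W against WF, 1 on TPM values, with array weights and with DESeq2, and 0 to 2 when 1 library was left out. In FR against WF 4 passed, 2 with a minimum of 1.5-fold, 1 with all 9 libraries in 1 fit, 3 with DESeq2 and with edgeR, and 1 to 5 when 1 library was left out. In W against FR 0 passed and DESeq2 gave 1, and in W against both other groups TPM values gave 1 and leaving out 1 library gave 0 to 1.

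Signs changed only for values that had not passed. In W against WF asn1 (-0.05) was 0.0037 with array weights and between -0.13 and 0.023 when 1 library was left out, the latter without W replicate 2, and gdh1 (0.04) was -0.043 on TPM values, -0.11 with array weights, and between -0.17 and 0.16 when 1 library was left out. For asn3 in FR against WF the values without 1 library ran from -0.22 to 0.67. For asn2 in W against FR (0.27), DESeq2 gave -0.45, edgeR -0.39, TPM values -0.022, and leaving out 1 library -0.20 to 0.79. For gdh1 in W against both other groups (-0.08), leaving out 1 library gave -0.29 to 0.043. The cause of these changes was not tested. Without FR replicate 1, asn2 in FR against WF passed at -2.34 (adjusted p 0.097, limma without the filter). At this depth asn2, with 11 reads at most, cannot show any but a large difference.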
